A study of Rattus norvegicus with 12 samples.

Results

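Hearts of young adult rats that ate a high fat and sucrose diet (HFS) after weaning were compared with hearts of rats that ate a low fat diet (LF), averaged over 2 kinds of mother. The comparison used all 12 libraries of the series. The 6 HFS libraries were those whose titles give HFS as the offspring's own diet, and the 6 LF libraries were those whose titles give LF. Kind of dam was the second factor, and both kinds carried equal weight, so that the value for a gene is the mean of its diet difference in offspring of Lean dams and its diet difference in offspring of GDM dams. Gestational diabetes mellitus (GDM) is diabetes that appears in pregnancy.

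The animals were Sprague Dawley rats, an outbred laboratory stock. GDM dams were fed HFS before mating, while pregnant and while nursing, and Lean dams were fed LF. The 4 groups, of 3 libraries each, were Lean-LF and GDM-LF on the LF side and Lean-HFS and GDM-HFS on the HFS side, written as the dam and then the offspring's own diet. Offspring were weaned at 3 weeks, placed on a diet at random and kept on it to 15 weeks of age, when the whole heart was taken. The GDM state was brought about by the HFS diet of the dam, so a GDM-HFS rat met that diet before and after weaning and a Lean-HFS rat met it after weaning only. The series planned 6 animals a group, and the other animals were not analysed here. The labels do not name litters, and nothing beyond the spread among these hearts enters a p-value. All libraries held Eif2s3y, a gene of the Y chromosome, at 118 to 143 scaled reads.

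The heart draws most of its ATP from mitochondrial oxidation of fatty acids, glucose, lactate and ketone bodies, and the mix follows what the blood supplies. Dietary fat raises the supply of fatty acids, which act through PPAR nuclear receptors on genes of fatty acid uptake and oxidation and on Pdk4, a kinase that holds back glucose oxidation. Lipoprotein lipase, carried to the capillary wall by GPIHBP1, frees fatty acids from circulating triglyceride, and GLUT4, the product of Slc2a4, takes up glucose under insulin. The respiratory chain, made of complexes I to V in the inner mitochondrial membrane, turns the electrons from all of these fuels into ATP.

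Nuclear genes for respiratory chain subunits were the pathway group with the lowest medians on HFS, described further on, and the promoters of 3 of them are shown because known regulators of this group, NRF1 and the estrogen-related receptors (ERR), bind DNA near gene starts. Each line holds the 250 bases before the RefSeq start site (assembly GRCr8), 5′ to 3′ in the direction of the gene, with matches to the NRF1 motif in capitals. Ndufa6, the complex I subunit with the smallest p, lies at chr7:115750318-115750567 on the minus strand. Ndufa11, also of complex I, lies at chr9:1637364-1637613 on the plus strand, and Atp5po, of the ATP synthase, at chr11:44657484-44657733 on the minus strand.
Ndufa6: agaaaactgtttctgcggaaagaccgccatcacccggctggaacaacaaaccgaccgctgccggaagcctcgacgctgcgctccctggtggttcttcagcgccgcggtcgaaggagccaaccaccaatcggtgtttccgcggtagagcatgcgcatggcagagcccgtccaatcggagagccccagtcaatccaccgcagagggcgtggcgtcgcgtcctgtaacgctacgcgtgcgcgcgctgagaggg
Ndufa11: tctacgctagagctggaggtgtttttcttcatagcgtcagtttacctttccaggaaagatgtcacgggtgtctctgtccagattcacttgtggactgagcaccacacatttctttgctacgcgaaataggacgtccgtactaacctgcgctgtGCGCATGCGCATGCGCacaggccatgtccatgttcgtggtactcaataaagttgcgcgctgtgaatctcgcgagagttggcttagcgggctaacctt
Atp5po: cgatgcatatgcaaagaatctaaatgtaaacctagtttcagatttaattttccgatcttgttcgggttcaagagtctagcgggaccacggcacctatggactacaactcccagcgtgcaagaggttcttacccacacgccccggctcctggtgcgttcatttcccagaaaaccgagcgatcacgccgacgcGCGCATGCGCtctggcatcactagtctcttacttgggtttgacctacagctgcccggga

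Ndufa11 (log2 -0.25 ± 0.10, HFS minus LF) and Atp5po (-0.19 ± 0.08) were chosen after their motif matches were seen, and no match was found for Ndufa6. In Ndufa11 the capitals hold a pair of overlapping matches, the first starting at base -97 from the gene start, and in Atp5po the match starts at base -59. The NRF1 motif searched was the run of letters in capitals in Atp5po, which reads the same on both strands. Promoter entries matched 65 of the 75 respiratory chain subunits tested, and 4 of these 65 (6.15%) held the motif, against 160 of 10014 promoters of tested genes (1.60%) and 233 of all 27457 promoters (0.849%). The ERR motif TCAAGGTCA, searched on both strands, was in 1 of the 65 and in 101 of the 27457 (0.368%). A PPAR motif, a repeat of AGGTCA with 1 base between, was searched on both strands. It was in 0 of 28 promoters of the PPAR target and fuel-switch list and in 15 of the 27457. These counts describe the letters in the windows only.

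Values are whole reads of a gene model scaled to a common size, called scaled reads here. They are not divided by gene length. Libraries held 9172734 to 14418970 reads outside ribosomal RNA, with means of 11657907 for HFS and 11325515 for LF (exact permutation test, two-sided, p = 0.732). Library Lean-HFS 2 stood apart on the second principal component (score 48.6, with the other 11 from -36.1 to 15.8), and GDM-LF 3 lay with the 3 GDM-HFS libraries on the first (28.4, with these at 21.1 to 38.1 and the other 8 from -33.5 to 5.51). Outside ribosomal RNA, GDM-LF 3 and the GDM-HFS libraries held 11883687 to 14418970 reads, and the other 8 held 9172734 to 11734599. The part of depth in this component was not tested. Some printed list medians moved by over 1.5 times or turned sign when Lean-HFS 2, GDM-LF 3 or another library was left out. For these, the value or range with libraries left out is given beside the median. The cell type labelled, heart, showed its markers at high values in every library, with a sum over 12 cardiomyocyte markers of 163627 to 283831 scaled reads.

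Of 12983 genes tested, 0 were called (0%) as different between HFS and LF hearts averaged over dams at an adjusted p under 0.05 (limma, Benjamini-Hochberg), where the lowest adjusted p was 0.108. An unadjusted p under 0.05 was reached by 1028 genes (7.92%), of which 521 were higher (4.01%) and 507 lower (3.91%) on HFS. On values without the scaling factor, where the median difference of all genes was 0.11 in place of 0.0083 on the log2 scale, the split was 981 higher and 102 lower. All differences are therefore given relative to the bulk of genes. On recovered reads edgeR called 0 genes, and DESeq2 called 15 higher (0.116%) and 16 lower (0.123%). The 6 HFS values lay all above the 6 LF values for 18 genes (0.139%) and all below for 27 (0.208%). The median standard error of a log2 difference was 0.12.

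The 24 genes with the smallest p are described as leading genes, and none of them passed by limma. They divided into 12 higher and 12 lower on HFS, with log2 differences of 0.24 to 1.22 in size. Of the 24, 23 had the same sign in offspring of both kinds of dam, against 57.9% of all genes. The 24 were chosen by the average over both dams, which favours a shared sign, so this count is not a separate test. DESeq2 called 22 of the 24, the exceptions being Gpihbp1 and Cyp4f18, and edgeR called 0 genes. The 24 were picked by p in the same 12 libraries, so the count of 22 is not a separate test either.

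First among the genes lower on HFS was Slc25a29, a carrier that moves basic amino acids such as arginine and lysine across the inner mitochondrial membrane (Rnor_6.0, chr6:132736974-132747762). It was at 44.9, 41.8 and 40.3 scaled reads in Lean-LF, 36.4, 36.4 and 34.1 in GDM-LF, 27.5, 22.5 and 28.5 in Lean-HFS, and 23.9, 19.9 and 22.9 in GDM-HFS. Every HFS heart was below every LF heart, and all GDM-LF hearts were below all Lean-LF hearts. The log2 difference was -0.69 ± 0.10 (SE), or 39.0 ± 4.04 on LF against 24.2 ± 3.25 on HFS (mean ± SD, n = 6 each; limma adjusted p = 0.108). The adjusted p ranged from 0.0467, with dam and diet as additive terms, to 0.565 without Lean-LF 1 among the limma fits run.

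The insulin-responsive glucose transporter gene Slc2a4 (chr10:56552983-56558487) had its lowest, median and highest values at 911, 1029 and 1087 scaled reads on LF and 531, 757 and 867 on HFS. The diets did not overlap, and the lowest value was that of Lean-HFS 2. The log2 difference was -0.46 ± 0.11 (limma adjusted p = 0.389), and -0.35 without Lean-HFS 2. Eno3, the muscle enolase of glycolysis (chr10:57278307-57283659), was at 771, 938 and 1063 on LF and 482, 713 and 762 on HFS. These values also did not overlap, and the log2 difference was -0.46 ± 0.11.

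Uqcrb, a small subunit of respiratory complex III (chr7:71264502-71269869), was at 357, 414 and 433 scaled reads on LF and 300, 325 and 345 on HFS, with no overlap and a log2 difference of -0.33 ± 0.06. Kcnj11 encodes the pore of the ATP-sensitive potassium channel, which opens when ATP is short (chr1:102103094-102106127). Its values were 348, 377 and 403 on LF and 275, 301 and 352 on HFS, so that 5 of 6 HFS hearts lay below the LF range (log2 -0.31 ± 0.06). The small heat shock protein gene Cryab (chr8:55178543-55182546), whose product protects desmin and other filaments, was at 4793, 5568 and 5909 on LF and 3892, 4285 and 5249 on HFS. There 4 of 6 HFS hearts were below the LF range, the 3 GDM-HFS hearts among them, and the log2 difference was -0.31 ± 0.07. Gstm2, a glutathione transferase, was at 284, 304 and 384 on LF and 183, 253 and 275 on HFS, without overlap (log2 -0.39 ± 0.09).

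A pair of signalling genes was also lower. Rgs4, which shortens signals of Gi- and Gq-coupled receptors by speeding GTP hydrolysis (chr13:88054817-88061108), was at 97.1, 117 and 127 scaled reads on LF and 71.6, 87.9 and 94.8 on HFS. Gdf11, a secreted ligand of the TGF-beta family (chr7:3306863-3315856), was at 83.9, 91.5 and 109 on LF and 51.9, 64.8 and 81.8 on HFS. Both separated the diets, with log2 differences of -0.41 ± 0.08 and -0.51 ± 0.12. Exosc4, a core subunit of the RNA exosome, also separated them (log2 -0.57 ± 0.12), while Rpl34, a ribosomal protein gene whose family copies can share reads and which is uncertain for that reason, did not (log2 -0.35 ± 0.08).

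**Figure D1:**
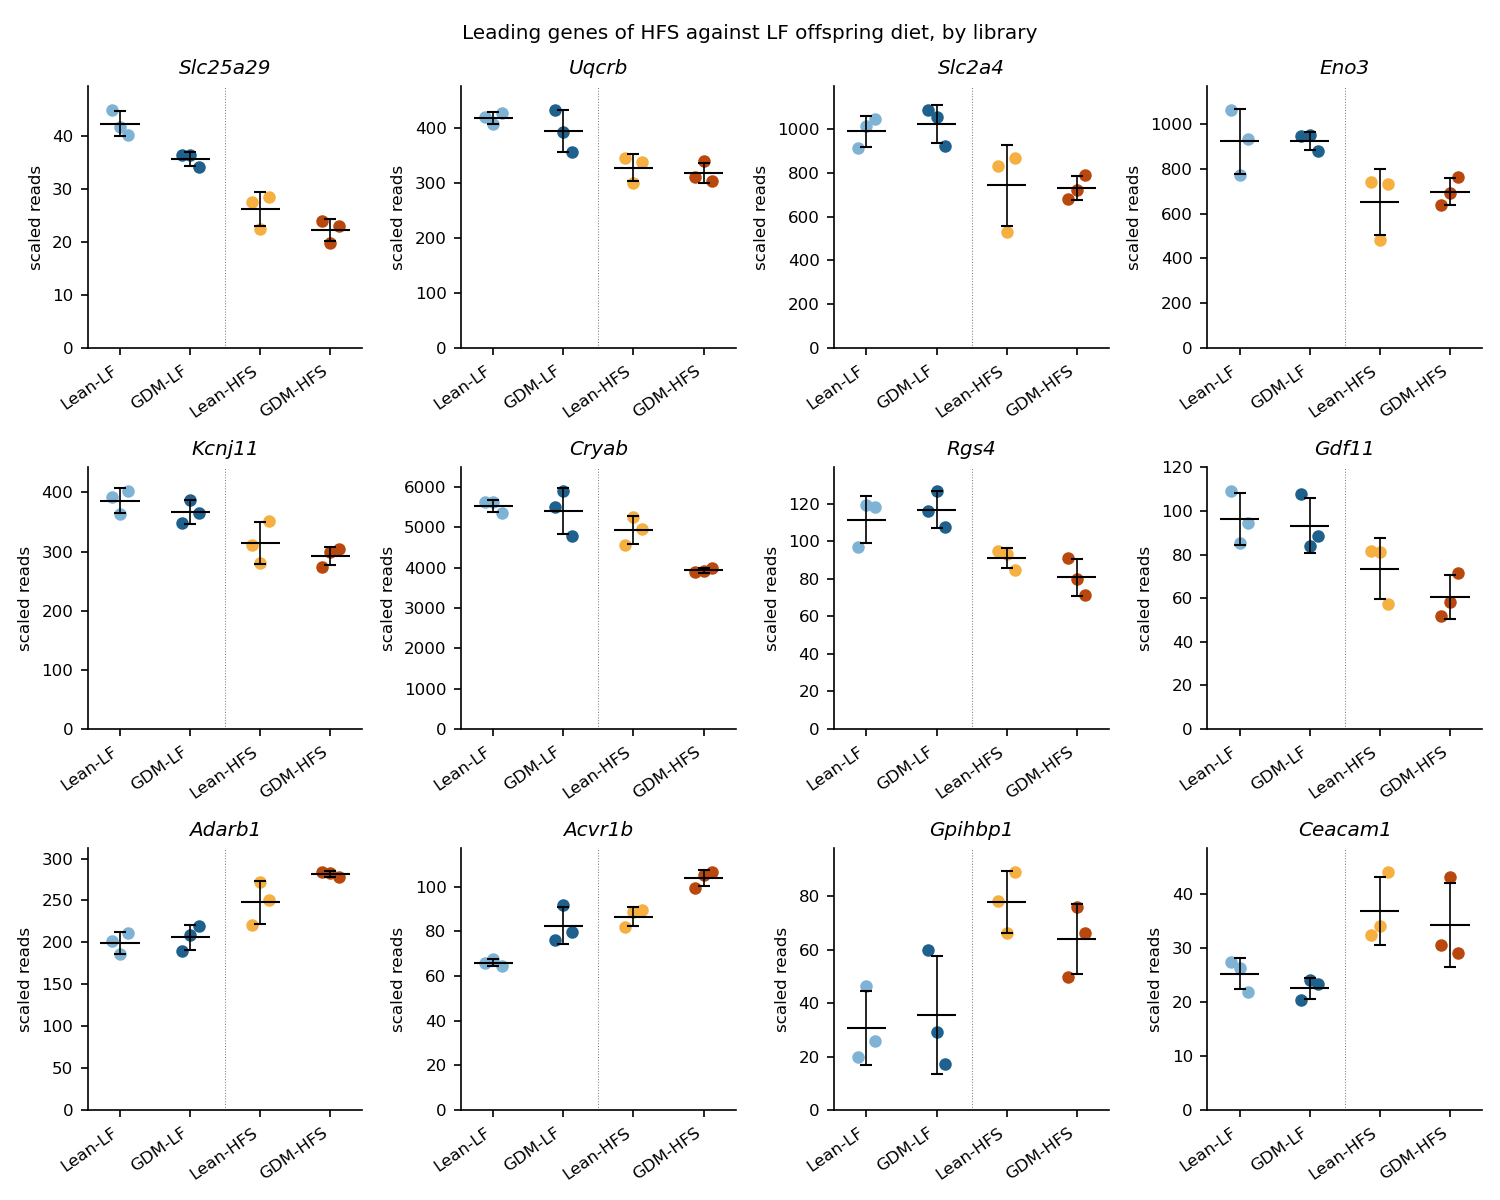
Scaled reads of 12 leading genes in each library (vertical axes, from 0), by group (horizontal axis). Points are libraries, long bars are group means and error bars are SDs of 3 libraries; the dotted line divides LF (left) from HFS (right). In Slc25a29 the LF libraries sit between 34.1 and 44.9 and the HFS libraries between 19.9 and 28.5.

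Among the genes higher on HFS, Adarb1 came first. It encodes ADAR2, an enzyme that edits adenosine to inosine in double-stranded RNA (chr20:11972381-12101022). Its values were 186, 205 and 219 scaled reads on LF and 221, 275 and 284 on HFS, with all HFS hearts above the LF range by a narrow margin at the edge (log2 0.38 ± 0.06, limma adjusted p = 0.262). Acvr1b, a type I receptor for activins and related ligands (chr7:142817174-142858365), was at 64.3, 71.9 and 91.9 on LF and 81.8, 94.5 and 107 on HFS. GDM-LF hearts (76.3 to 91.9) were all higher than Lean-LF hearts (64.3 to 67.6), 3 of 6 HFS hearts exceeded the LF range, and the log2 difference was 0.36 ± 0.07. Ceacam1, an adhesion molecule of endothelium and epithelium with a part in insulin clearance by the liver (chr1:82327955-82344345), was at 20.4, 23.7 and 27.5 on LF and 29.2, 33.3 and 44.2 on HFS, with no overlap (log2 0.56 ± 0.13).

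The largest log2 difference among the 24 was that of Gpihbp1 (chr7:116632496-116635543), the endothelial protein that carries lipoprotein lipase to the capillary lumen. It was at 17.2, 27.6 and 60.0 scaled reads on LF and 49.9, 71.1 and 89.1 on HFS, and 5 of the 6 HFS hearts exceeded every LF heart. The log2 difference was 1.22 ± 0.27, from 1.00 to 1.45 when any 1 library was left out. Rbp7, a retinol-binding protein found in capillary endothelium and fat (chr5:166278214-166282832), ranged from 18.5 to 39.8 on LF and from 37.8 to 61.3 on HFS, with 5 of 6 HFS hearts above the LF range (log2 0.85 ± 0.19). Of 19 general endothelial markers tested, 11 were below 0. At an unadjusted p under 0.05, 1 was higher and 2 were lower (4.01% and 3.91% of all genes). The median log2 difference was -0.015 (0.084 on values without the scaling factor, and between -0.059 with GDM-LF 3 and 0.013 with Lean-HFS 3 left out). This average joins medians of opposite sign, 0.11 in offspring of Lean dams and -0.16 in those of GDM dams. In both kinds of dam 3 of the 19 were below 0 and 1 was above 0 (27.8% and 30.2% of all genes). Adipocyte markers, described further on, were higher on HFS in most members. The part of either cell type in the differences of Gpihbp1 and Rbp7 was not tested.

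The other leading genes with higher values had smaller or less even differences. Rgs7, which like Rgs4 speeds GTP hydrolysis on G proteins, stood at 0.60 ± 0.13 on the log2 scale, opposite in sign to Rgs4. Kank1, an adaptor between adhesion sites and microtubules, Sipa1l2, a relative of Rap GTPase activators, and Tmcc3, a membrane protein of the endoplasmic reticulum, stood at 0.24 to 0.27. Trmt10b, a transfer RNA methyltransferase, separated the diets at low values of 8.32 to 13.6 on LF and 14.6 to 20.1 on HFS (log2 0.66 ± 0.14). Cntnap5c, of the contactin-associated family, stood at 0.86 ± 0.20 and Cyp4f18, a cytochrome P450 that hydroxylates fatty acids, at 0.86 ± 0.20.

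The diet difference was set side by side in offspring of Lean and of GDM dams, which share no library. In the Lean offspring 0 genes were called (0%) and 676 had an unadjusted p under 0.05 (5.21%), of which 343 were higher (2.64%) and 333 lower (2.56%). In the GDM offspring 0 were called (0%) and 723 had such a p (5.57%), of which 373 were higher (2.87%) and 350 lower (2.7%). Across all 12983 genes, Pearson's r between the 2 sets of log2 differences was 0.129, and 57.9% of genes had the same sign. Across the 8902 genes with a mean of at least 20 scaled reads, r was 0.317 and 60.0% had the same sign. Genes are not independent replicates, so r is given as a description. Of the 676 genes of the Lean offspring, 67.3% had the same sign in the GDM offspring, and of the 723 genes of the GDM offspring, 72.9% had the same sign in the Lean offspring.

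The test of the interaction, which asks whether the diet difference itself differs with the dam, called 0 genes (0%) and had 391 at an unadjusted p under 0.05 (3.01%), with a lowest adjusted p of 0.999 (limma). Of those, 179 had the more positive difference in GDM offspring, a count (1.38%) that became 287 with Lean-HFS 1 left out, 310 with Lean-HFS 3 and 313 with GDM-LF 3 left out, and 212 had the less positive one (1.63%). Its median standard error, 0.23, was larger than the size of most diet differences. Slc25a29 differed by -0.70 in Lean and -0.68 in GDM offspring, Slc2a4 by -0.45 and -0.48, and Uqcrb by -0.35 and -0.31. Tmem179 had the smallest interaction p (unadjusted 0.000292), with log2 differences of 0.0017 in Lean and -0.76 in GDM offspring. Rd3l came next (unadjusted 0.000895), at -0.66 and 0.31. Cyp4f18 stood at 1.62 in Lean and 0.10 in GDM offspring, a difference that was not called either.

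**Figure D2:**
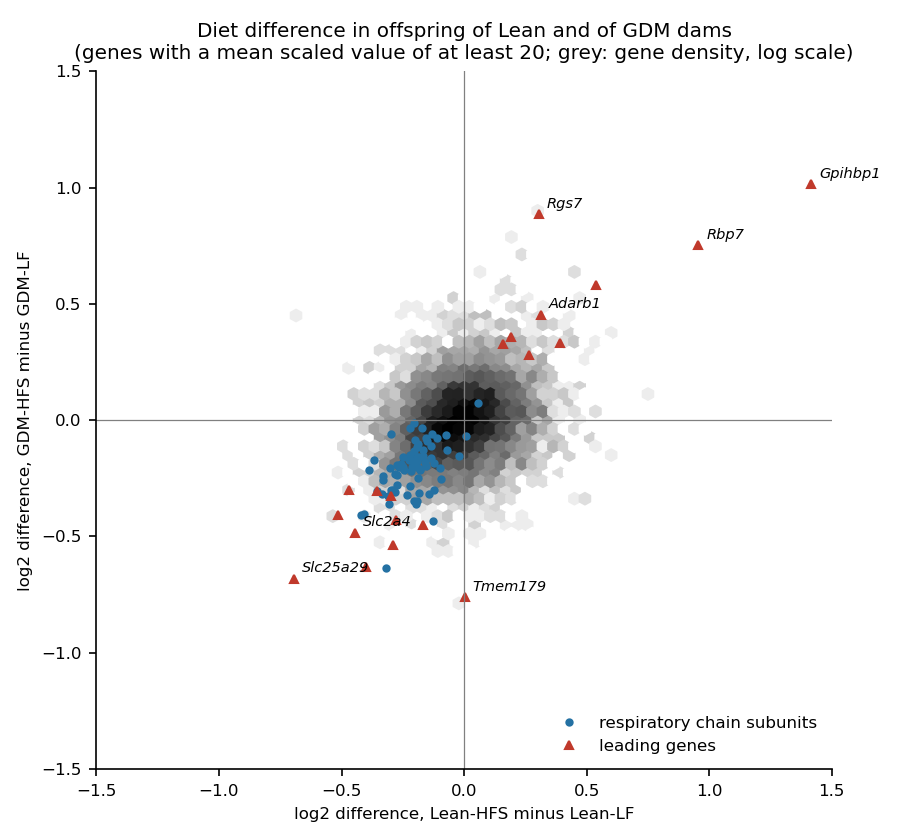
Log2 difference of HFS minus LF in offspring of Lean dams (horizontal axis) and of GDM dams (vertical axis) for genes with a mean of at least 20 scaled reads. Grey shading is gene density on a log scale, blue points are respiratory chain subunits and red triangles are those leading genes that reach this mean; Slc25a29 sits at -0.70 and -0.68, and the blue points gather below 0 on both axes.

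Respiratory chain subunits encoded in the nucleus were lower on HFS in nearly every case, by a small amount. All 33 complex I subunits tested (38 listed) had a log2 difference below 0. For complexes II to V this held for 41 of the 42 tested (43 listed), and for 47.8% of all genes. The complex I list had a median of -0.21 and the other one of -0.20, while the median gene stood at 0.0083, and on values without the scaling factor they were -0.11 and -0.099, against 0.11. Of all 75, 41 had an unadjusted p under 0.05 and a lower value (3.91% of all genes did), 0 a higher one, and 0 were called by limma. Without the scaling factor 69 of the 75 were below 0 and 14 were lower at such a p. In offspring of Lean dams the median over the 75 was -0.20 and in those of GDM dams -0.20, and 73 of 75 were below 0 in both (27.8% of all genes were, and 30.2% were above 0 in both). Since subunits of a chain vary together from heart to heart, these counts are not 75 separate observations.

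Within complex I the smallest p was that of Ndufa6, an accessory subunit, at 239, 277 and 281 scaled reads on LF and 187, 207 and 262 on HFS (log2 -0.32 ± 0.08, limma adjusted p = 0.389). Ndufb9, Ndufa2 and Ndufb2, all accessory subunits, stood at -0.29, -0.30 and -0.28. The lowest value over the complex was -0.32 and the highest -0.07. In complexes II to V, the muscle isoform Cox6a2 of cytochrome oxidase had the lowest value, -0.48 ± 0.12, at 2258, 2826 and 3487 on LF and 1786, 1931 and 3135 on HFS, and DESeq2 called it. After Uqcrb and Cox6a2 came Atp5pf, of the ATP synthase, at -0.27, and Cox6c, of cytochrome oxidase, at -0.28. For Ndufa6, Cox6a2, Atp5pf and Cox6c alike, 5 of 6 HFS hearts were below the LF range.

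The level of the 75 genes in a library was taken as the mean of their centred log2 values. It was 0.13, 0.13 and 0.13 in Lean-LF, 0.20, 0.085 and -0.051 in GDM-LF, 0.045, -0.35 and 0.054 in Lean-HFS, and -0.23, -0.10 and -0.057 in GDM-HFS. Lean-HFS 2 was the lowest library and GDM-LF 3 the lowest on LF, and 4 of 6 HFS hearts lay below the LF range. Without Lean-HFS 2 the median difference of the 75 was -0.15, with 74 below 0 and 32 lower at an unadjusted p under 0.05. Without GDM-LF 3 it was -0.24, with 74 and 52. Over all 12 fits that leave out 1 library the median lay between -0.24 and -0.15.

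**Figure D3:**
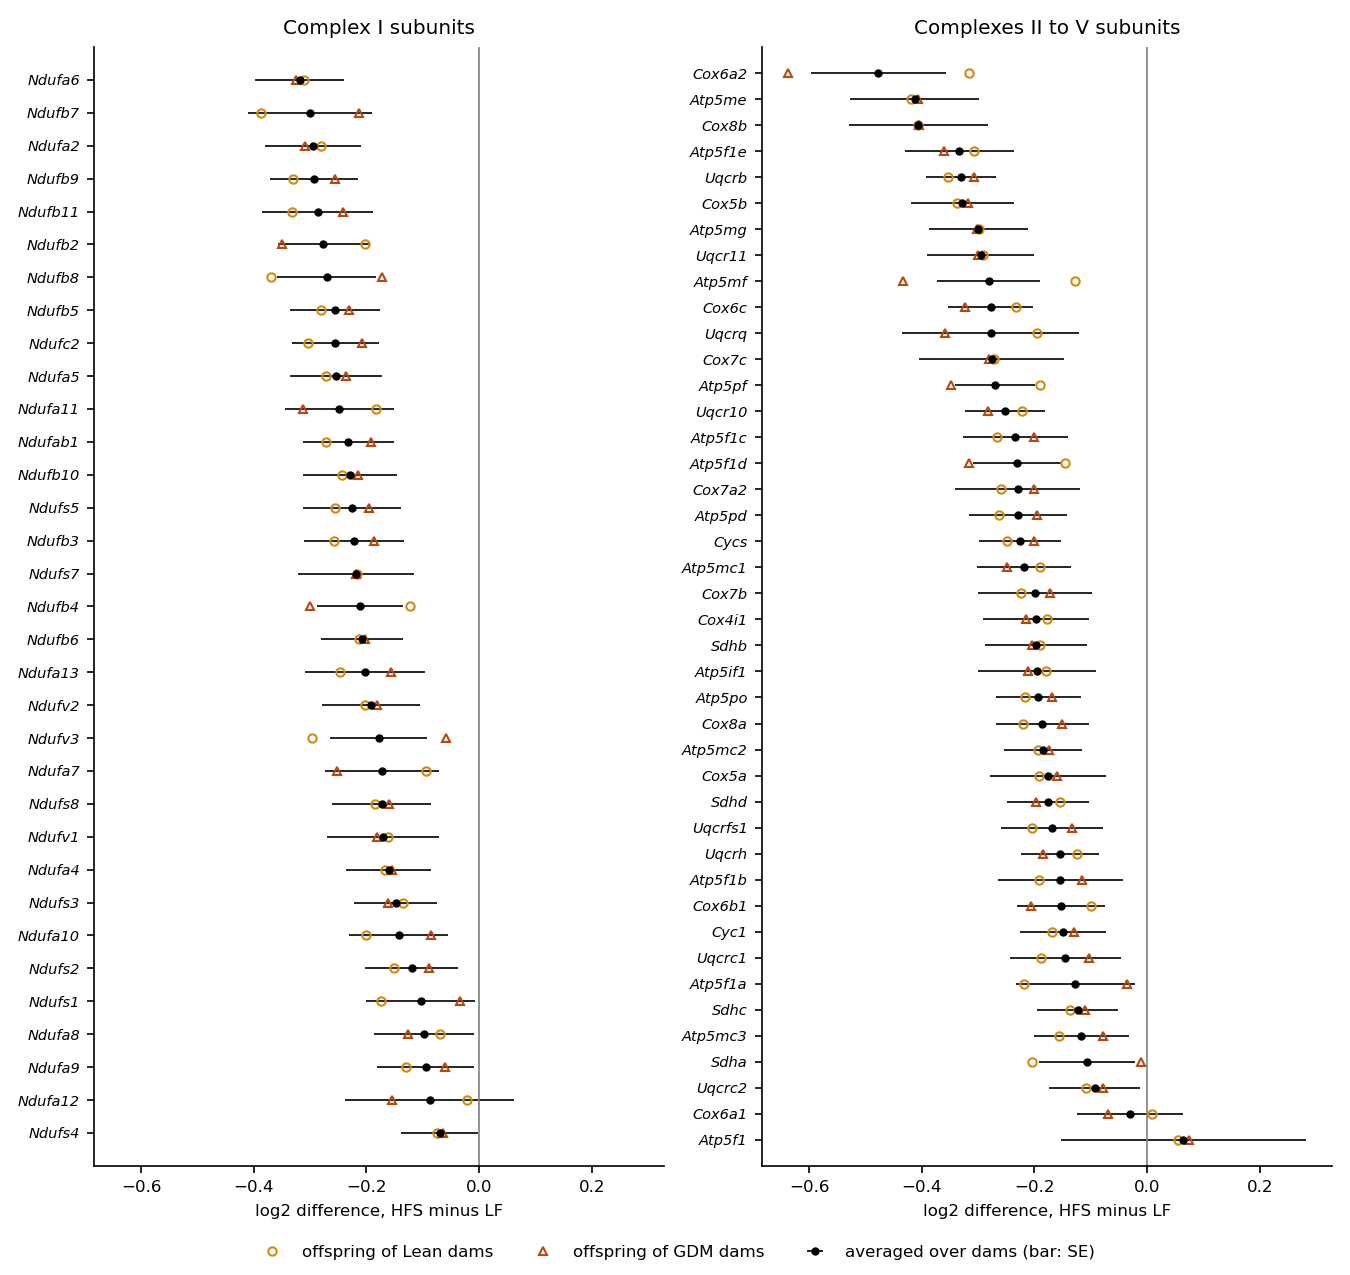
Log2 difference of HFS minus LF (horizontal axes) for each of 33 complex I subunits (left) and 42 subunits of complexes II to V (right). Black points with bars are the values averaged over dams with their standard errors, open circles are offspring of Lean dams and open triangles offspring of GDM dams; of the 75 black points 74 lie below 0.

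Other mitochondrial groups were lower to a smaller extent. All 24 genes of the TCA cycle and pyruvate dehydrogenase list were below 0, with a median of -0.11, or -0.057 when Lean-HFS 2 was left out and -0.16 when GDM-LF 3 was. Without the scaling factor, 17 of the 24 were below 0, with a median of -0.016. Mpc1, a subunit of the carrier that brings pyruvate into mitochondria, stood at -0.25 ± 0.07, and Idh2, the mitochondrial NADP-dependent isocitrate dehydrogenase, at -0.21 ± 0.07. Assembly factors of the chain were below 0 in 27 of 33 (median -0.12, or -0.077 with Lean-HFS 2 left out), with Cox17, a copper chaperone of cytochrome oxidase, at -0.28 and Uqcc2, of complex III assembly, separating the diets at -0.21 ± 0.08. Mitochondrial ribosomal proteins were below 0 in 62 of 67 (median -0.14), and 8 were lower at an unadjusted p under 0.05 (3.91% of all genes were). That count was 16 when GDM-LF 3 or Lean-HFS 3 was left out and 13 for GDM-HFS 3. It was 5 for Lean-LF 2 or Lean-LF 3, 4 for Lean-HFS 2 and 3 for GDM-LF 1. With Lean-HFS 2 left out 59 of 67 were below 0, with a median of -0.089. Mitochondrial carriers other than Slc25a29 were mixed, with 17 of the 28 in that list below 0 (10 without the scaling factor). Regulators of mitochondrial biogenesis and dynamics had a median of -0.032 (0.066 without the scaling factor, -0.069 with GDM-LF 3 left out and -0.050 with Lean-LF 2 left out), with Ppargc1a, their coactivator, at 0.08 ± 0.10, a sign that turned with Lean-HFS 3 left out (-0.0071). Txn2, the mitochondrial thioredoxin, separated the diets at 410, 424 and 447 on LF and 356, 365 and 398 on HFS (log2 -0.20 ± 0.05) and was called by DESeq2.

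Genes of glucose use were lower in 29 of 38 members of their list, with a median of -0.093 (0.0058 without the scaling factor, against 0.11 for all genes). With Lean-HFS 2 left out, 26 were below 0 and the median was -0.051. At an unadjusted p under 0.05, 8 were lower (4 without GDM-LF 2 or Lean-LF 1) and 0 higher, against 3.91% and 4.01% of all genes. The diets were separated by 3 members, all lower on HFS, against 0.208% of all genes. These 3 were Slc2a4 and Eno3, given above, and Hk2, the muscle hexokinase that follows GLUT4 in glucose uptake, at 296, 309 and 357 scaled reads on LF and 247, 270 and 294 on HFS (log2 -0.23 ± 0.06). Pgam2, the muscle phosphoglycerate mutase, stood at -0.27 ± 0.09. Insulin signalling genes were above 0 in 21 of 30 (median 0.043, or 0.021, 0.027 and 0.028 with Lean-HFS 3, GDM-LF 3 or Lean-LF 1 left out), with the receptor substrate Irs2 at 0.40 ± 0.13, the transcription factor Foxo3 at 0.32 ± 0.12 and the kinase Akt1 at -0.13 ± 0.06.

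Breakdown of ketone bodies and branched-chain amino acids, which feed the TCA cycle, had lower members too. Bdh1, the dehydrogenase that opens beta-hydroxybutyrate oxidation, was at 148, 188 and 264 scaled reads on LF and 58.9, 111 and 169 on HFS (log2 -0.86 ± 0.20), with 4 of 6 HFS hearts below the LF range. Oxct1, the transferase of the next step, stood at -0.24 ± 0.10. In the branched-chain list 17 of 19 were below 0, with a median of -0.17. At an unadjusted p under 0.05, against 3.91% of all genes, 8 were lower (5 without Lean-LF 2). They included Bcat2, the mitochondrial transaminase, at -0.40 ± 0.13, Dbt, a subunit of the branched-chain keto acid dehydrogenase, at -0.33 ± 0.09, and Ppm1k, the phosphatase that activates that enzyme, at -0.29 ± 0.09. Without Lean-HFS 2 the median of the branched-chain list was -0.085, with 14 of 19 below 0.

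Genes of the PPAR receptors, of their targets and of the switch between fuels, taken as 1 list, were higher on HFS in some members only. Of 31 in the list, 19 were above 0 with a median of 0.090, and 6 were higher and 1 lower at an unadjusted p under 0.05 (4.01% and 3.91% of all genes). Without Lean-HFS 2 these became 23, 0.15, 11 and 0, and the count of higher genes was 2 without GDM-HFS 2 and 3 without GDM-HFS 3 or Lean-HFS 1. The median was lower with other libraries left out, at 0.037 for GDM-HFS 3, 0.043 for GDM-LF 3, 0.047 for Lean-HFS 1 and 0.059 for Lean-LF 1. Angptl4, a secreted inhibitor of lipoprotein lipase, was at 4.63, 13.0 and 23.4 scaled reads on LF and 25.3 to 33.4 in 5 HFS hearts, with Lean-HFS 2 at 9.78 (log2 1.06 ± 0.38, limma adjusted p = 0.514). Pdk4 spanned 273 to 2017 on LF and 672 to 1802 on HFS, so the diets overlapped throughout (log2 0.75 ± 0.41, 0.32 without GDM-LF 3 and 1.04 without GDM-LF 1). The uncoupling proteins Ucp3 and Ucp2 stood at 0.41 ± 0.35 and 0.23 ± 0.13, and Pparg, the receptor most abundant in fat, at 0.34 ± 0.12. With 1 library left out Ucp3 lay between 0.13 (GDM-LF 3) and 0.72 (Lean-HFS 2), and Ucp2 was at 0.15 for Lean-HFS 3.

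Enzymes of fatty acid oxidation showed no common direction, with 13 of 30 beta-oxidation genes below 0 and a median of 0.017. It was 0.078 when Lean-HFS 2 was left out, -0.034 when GDM-LF 3 was and -0.056 when Lean-HFS 1 was. This average joins medians of opposite sign, -0.10 in offspring of Lean dams and 0.10 in those of GDM dams. In both kinds of dam 4 of the 30 were below 0 and 8 above 0 (27.8% and 30.2% of all genes). The carnitine transferases Cpt1a and Cpt1b, which admit fatty acids to mitochondria, stood at 0.23 ± 0.12 and 0.03 ± 0.08, and with GDM-LF 3 left out at 0.12 and -0.029. Decr1, needed for unsaturated fatty acids, was at 305, 375 and 471 on LF and 330, 507 and 557 on HFS (log2 0.34 ± 0.12). The thioesterase Acot2 stood at 0.22 ± 0.16, between 0.10 (GDM-LF 3) and 0.34 (GDM-LF 1) with 1 library left out, and its relative Acot1 was near the limit of 3 reads on LF (0 to 1.03) and at 0.499 to 3.51 on HFS, too few reads for a fold. Fgf21, a hormone of fasting, was below the minimum for testing.

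Genes that bring fatty acids into the cell were split. Besides Gpihbp1 and Angptl4, the synthetase Acsl4 was higher (log2 0.20 ± 0.07) and the transporter Cd36, whose model overlaps another and is uncertain, stood at 0.18 ± 0.09. Lpl, lipoprotein lipase itself, was at 7600, 10478 and 10914 on LF and 7109, 8436 and 9292 on HFS (log2 -0.27 ± 0.11). The list of 20 had 11 members below 0 (7 without the scaling factor). At an unadjusted p under 0.05, 3 were higher and 5 lower (4.01% and 3.91% of all genes). The 5 became 0 to 4 when any 1 library was left out. In sterol and fatty acid synthesis 24 of 38 were below 0 (median -0.051, or 0.047 without the scaling factor, and -0.021, -0.023 and -0.031 with Lean-HFS 2, GDM-LF 2 or Lean-HFS 3 left out). Scd2, a desaturase that makes monounsaturated fatty acids, was at 177, 226 and 301 on LF and 130, 159 and 189 on HFS (log2 -0.54 ± 0.14) and was called by DESeq2. Scd, its relative, ranged from 0.971 to 253 on LF, the highest being GDM-LF 3, and its log2 difference of 0.84 ± 1.22 lay between 0.033 (GDM-LF 1) and 2.00 (GDM-LF 3) with 1 library left out. Cyp51, of cholesterol synthesis, stood at -0.26 ± 0.10.

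White adipocyte markers had the highest median of the 48 lists. Of 13 white adipocyte markers tested, of 14 in the table, 12 were above 0 with a median log2 difference of 1.37. At an unadjusted p under 0.05, against 4.01% of all genes, 7 were higher (4 without GDM-LF 1 or Lean-LF 3). Plin1, which coats the lipid droplet of fat cells, was at 0.426, 1.27 and 9.09 scaled reads on LF and 3.33, 6.04 and 46.1 on HFS. Its lowest LF value was below the worth of 3 reads, so no fold is given, though the list median includes this gene. Pck1, of glyceride formation in fat, ranged from 1.46 to 13.7 on LF and from 4.25 to 86.0 on HFS. Lipe, the hormone-sensitive lipase, which heart muscle also expresses, stood at 0.29 ± 0.09. Ucp1, the uncoupling protein of brown fat, was at 0 to 1.03 on LF and 0 to 38.0 on HFS, and the brown fat markers Elovl3 and Zic1 were at 0 in all libraries.

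Summed over the 14 white adipocyte markers, the level was 1352 to 1771 scaled reads on LF and 1381 to 2080 on HFS, with 2 HFS hearts above the LF range. The mean centred level was highest in GDM-HFS 3 (1.89), followed by Lean-HFS 1 (1.00) and GDM-LF 3 (0.99), and lowest in GDM-LF 1 (-1.33). The median of the list was between 0.62 (Lean-LF 1) and 1.77 (GDM-LF 3) when any 1 library was left out, and 0.86 with DESeq2. The 6 brown adipocyte markers tested had a median of 0.63, or 0.19 with GDM-HFS 3, 0.22 with Lean-LF 1, 0.38 with GDM-LF 2 and 0.97 with GDM-HFS 1 left out. In whole hearts, more cells of a type and more RNA per cell cannot be told apart, and no source used here gives the amount of fat left on each heart.

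Markers of heart muscle cells moved with the respiratory chain. All 12 cardiomyocyte markers were below 0, with a median of -0.20 (-0.11 without the scaling factor, against 0.11 for all genes). At an unadjusted p under 0.05, against 3.91% of all genes, 3 were lower. Among these 3 were Tnni3, cardiac troponin I, at -0.34 ± 0.13 and Mybpc3, cardiac myosin-binding protein C, at -0.20 ± 0.09. Without Lean-HFS 2 the median was -0.16, with 10 of 12 below 0. Summed, the markers were at 231223 to 283831 scaled reads on LF and 163627 to 258152 on HFS, with 2 HFS hearts below the LF range. Whether the lower respiratory chain values follow a smaller share of muscle RNA was not tested.

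Ventricular markers were below 0 in 10 of 10 (median -0.23, 5 of 6 HFS levels below the LF range). They included Myl2, the ventricular regulatory light chain, at 3830, 5050 and 5393 scaled reads on LF and 2995, 3967 and 4172 on HFS (log2 -0.36 ± 0.10), and the ventricular transcription factor Irx4 at -0.44 ± 0.11. Atrial markers were above 0 in 17 of 20, with a median of 0.31, between 0.19 (GDM-LF 1) and 0.40 when any 1 library was left out. Nppa, the atrial natriuretic peptide, ranged from 357 to 6717 on LF and from 1712 to 10960 on HFS (log2 1.54 ± 0.61, or 0.94 with GDM-LF 1 left out), and Myl4, the atrial essential light chain, from 33.0 to 1070 and from 147 to 1939. The atrial sum was 8734 to 23829 on LF and 12633 to 36918 on HFS, with 1 HFS heart above the LF range. No source used here gives the atrial tissue kept on each heart, and its part in the values was not tested.

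**Figure D4:**
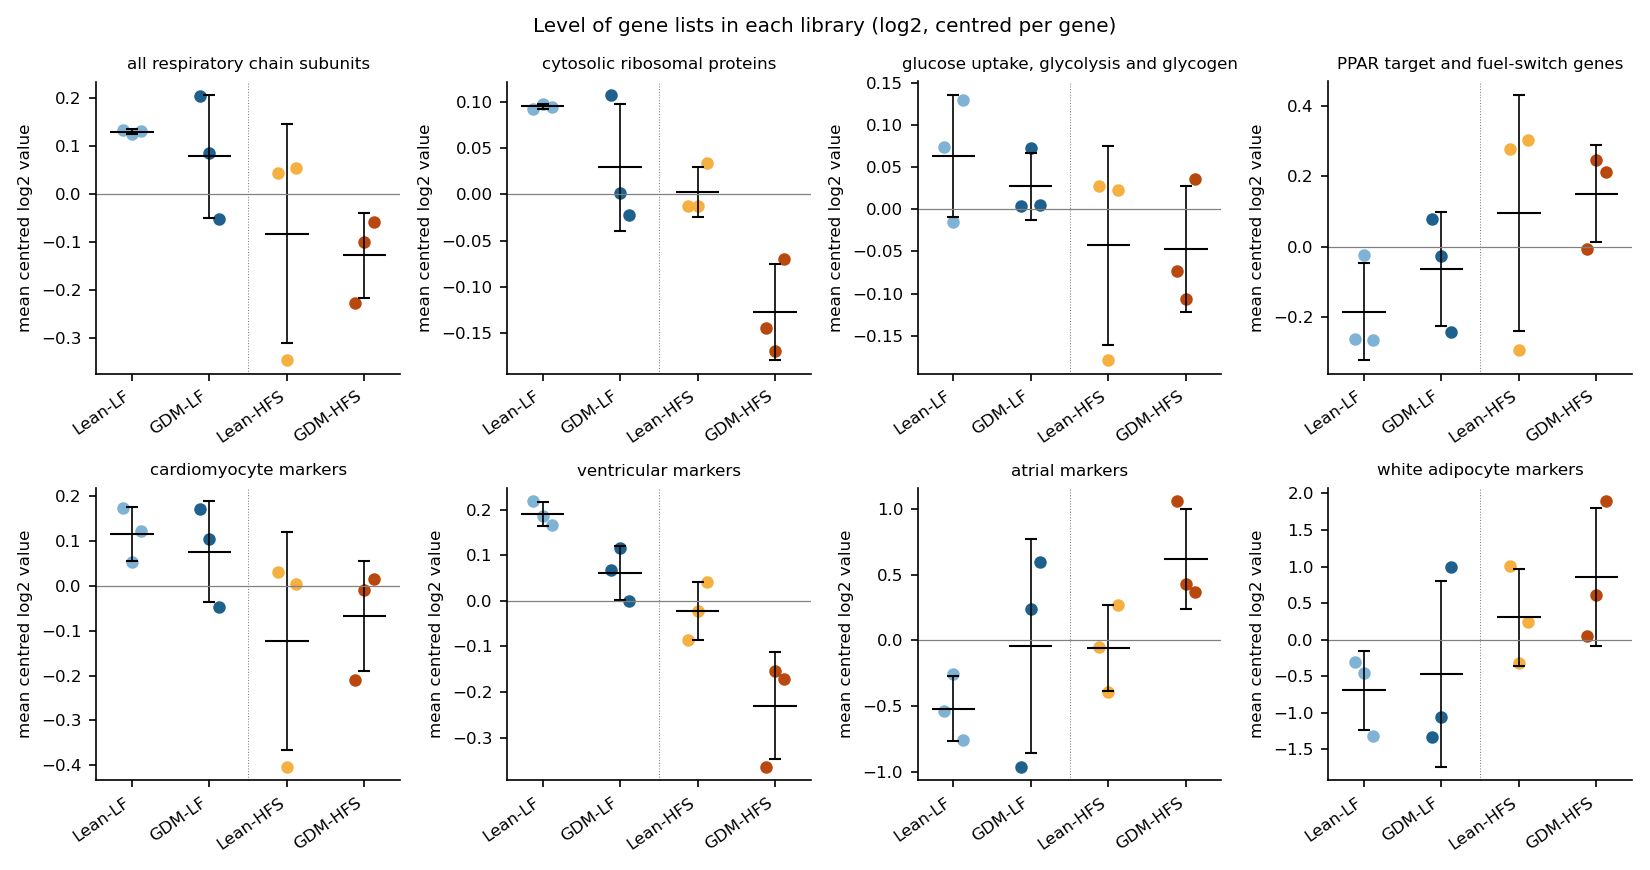
Level of 8 gene lists in each library, as the mean over member genes of log2 scaled reads centred on each gene's mean (vertical axes), by group (horizontal axis). Points are libraries, long bars group means and error bars SDs of 3 libraries; in the respiratory chain panel Lean-HFS 2 is the lowest point, at -0.35, and it is also the lowest in the cardiomyocyte panel, at -0.40.

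Contractile genes as a list were below 0 in 28 of 35, with a median of -0.14. Without the scaling factor 24 were below 0, with a median of -0.046, and quantile normalization gave -0.023. The myosin heavy chains were dominated by single libraries. Myh6 was at 28979 in Lean-HFS 2 and at 68762 to 91476 in the other HFS hearts, against 62587 to 102567 on LF, and its log2 difference of -0.21 ± 0.25 became 0.02 without that library. Myh7 stood at -0.44 ± 0.28, between -0.69 (Lean-LF 3) and -0.28 (Lean-LF 1) with 1 library left out, and Acta1, skeletal actin, at -0.15 ± 0.33, which became -0.43 for Lean-HFS 2 and 0.049 for Lean-HFS 1 left out, and Lean-HFS 2 held the highest HFS value of both (31877 and 5794). Tpm2, a tropomyosin of smooth and slow muscle that DESeq2 called, was at 45.8, 62.6 and 69.9 on LF and 53.0, 91.1 and 171 on HFS. Smooth muscle markers were divided, with 5 higher and 2 lower of 16 at an unadjusted p under 0.05 (4.01% and 3.91% of all genes). Lmod1, an actin nucleator of smooth muscle, stood at 0.76 ± 0.22, and Kcnj8, the vascular relative of Kcnj11, at -0.26 ± 0.08.

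Calcium cycling and ion channel lists had medians of 0.0056 and -0.043 (0.10 and 0.056 without the scaling factor), and neither held its sign with 1 library left out. The calcium median lay between -0.023 (Lean-LF 2 left out) and 0.028 (Lean-HFS 2), and the ion channel median between -0.12 (Lean-HFS 3) and 0.0064 (Lean-HFS 2). In offspring of Lean and of GDM dams the medians were -0.072 and 0.091 for calcium cycling and -0.15 and 0.071 for ion channels. Atp2a2, the calcium pump of the sarcoplasmic reticulum, stood at -0.13 ± 0.14, was lowest in Lean-HFS 2 (26426) and stood at -0.029 with that library left out. Itpr1, an inositol trisphosphate-gated calcium channel, was at 552, 667 and 842 scaled reads on LF and 703, 825 and 1026 on HFS (log2 0.33 ± 0.08). Among receptors of adrenergic, endothelin and angiotensin signals, Ednrb, the endothelin B receptor, separated the diets at 78.5, 86.1 and 89.7 on LF and 95.4, 104 and 117 on HFS (log2 0.29 ± 0.07). The median of that list of 26 was 0.029, between -0.0099 (Lean-HFS 3) and 0.084 (GDM-LF 3) with 1 library left out. It was -0.024 in offspring of Lean dams and 0.073 in those of GDM dams. Adra1b, an alpha-1 adrenergic receptor, stood at -0.22 ± 0.10.

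Cytosolic ribosomal proteins were below 0 in 73 of 78, with a median of -0.12 and 22 lower at an unadjusted p under 0.05 (3.91% of all genes were). Fau, of the small subunit, stood at -0.21, and copies of ribosomal protein genes elsewhere may share reads. The count of 22 was between 10 and 32 when any 1 library was left out, with 10 without GDM-LF 1 and 13 without GDM-HFS 2. Proteasome subunits and muscle ubiquitin ligases were below 0 in 34 of 40 (median -0.13). At an unadjusted p under 0.05, against 3.91% of all genes, 12 were lower (7 without GDM-LF 2). Psma7, of the core, stood at -0.26 ± 0.08. On values without the scaling factor the ribosomal and proteasome medians were -0.020 and -0.027, against 0.11 for all genes. Autophagy genes had a median of -0.023 (0.076 without the scaling factor, and between -0.058 with GDM-LF 3 and -0.0083 with Lean-HFS 3 left out), with Map1lc3a, an LC3 protein of the autophagosome, at -0.25 ± 0.06.

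Differences moved with the length of the gene on the chromosome. With genes divided into 4 classes of near equal number by span, the shortest class, of 66 to 8516 bp, had a median log2 difference of -0.054 and 60.8% below 0. In the class with the longest spans, of 51951 to 2146932 bp, it was 0.056 and 31.1% were below 0, with the middle classes at -0.013 and 0.015. The order was the same in offspring of Lean and of GDM dams, with -0.038 and -0.060 for the shortest class and 0.047 and 0.061 for the longest. Of the respiratory chain subunits 50 of 75 lay in the shortest class, of the cytosolic ribosomal proteins 78 of 78 and of the mitochondrial ones 45 of 67. The part of gene span in the values of these lists was not tested.

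Genes that answer quickly to stimuli were higher in part. Immediate early genes were above 0 in 21 of 29 with a median of 0.11. At an unadjusted p under 0.05, 7 were higher and 1 lower (4.01% and 3.91% of all genes). The median was 0.22 with GDM-HFS 1 left out and 0.071 with GDM-HFS 3 left out. Zfp36, which speeds the decay of cytokine messenger RNA, was at 99.5, 110 and 130 scaled reads on LF and 119, 167 and 212 on HFS (log2 0.54 ± 0.14), and DESeq2 called it. Nr4a1, an orphan nuclear receptor, and Fosl2, an AP-1 subunit, stood at 0.49 ± 0.17 and 0.44 ± 0.15. Glucocorticoid targets were above 0 in 15 of 20 (median 0.14, but 0.25, 0.22 and 0.090 with GDM-HFS 1, Lean-HFS 2 or Lean-LF 3 left out), with Errfi1, an inhibitor of EGF receptors, at 0.46 ± 0.20 and Cebpd, a transcription factor, at 0.45 ± 0.21. Clock genes gave 0 members at an unadjusted p under 0.05. No source used here gives the time of day at collection.

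The medians of matrix genes and of macrophage markers changed sign without Lean-HFS 2. Collagens and other matrix genes were above 0 in 38 of 44, with a median of 0.089, and without Lean-HFS 2 the median was -0.033 with 25 below 0. With another library left out it lay between 0.044 (GDM-LF 1) and 0.20 (Lean-HFS 3). The level of this list in that library was 0.84, with the next HFS heart at 0.094. Fn1, fibronectin, stood at 0.48 ± 0.20 and Ctgf, a matrix-bound growth regulator, at 0.70 ± 0.29. Macrophage markers had a median of 0.029 over 19, and -0.066 without that library, and its sign also turned with Lean-LF 1 (-0.019), GDM-HFS 2 (-0.0077) or GDM-LF 2 (-0.0020) left out. The macrophage median was 0.18 in offspring of Lean dams and -0.13 in those of GDM dams. Interferon response genes were below 0 in 26 of 34 (median -0.092; 0.0059 without the scaling factor, against 0.11 for all genes, and between -0.15 with GDM-LF 1 left out and -0.032 with GDM-LF 2 left out), with the antiviral gene Rsad2 at -0.44 ± 0.13 and the ubiquitin-like Isg15 at -0.60 ± 0.21. Erythroid genes, a sign of blood in the tissue, were below 0 in 10 of 13 (median -0.28, or -0.14 with GDM-HFS 2 left out), with the beta globin Hbb at 1052 to 1455 on LF and 471 to 1437 on HFS (log2 -0.50 ± 0.17). Cell cycle genes were below 0 in 24 of 34 (median -0.097, or 0.0014 without the scaling factor and -0.064 with GDM-HFS 3 left out), with the mitotic kinase Bub1 at -0.50 ± 0.18.

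**Figure D5:**
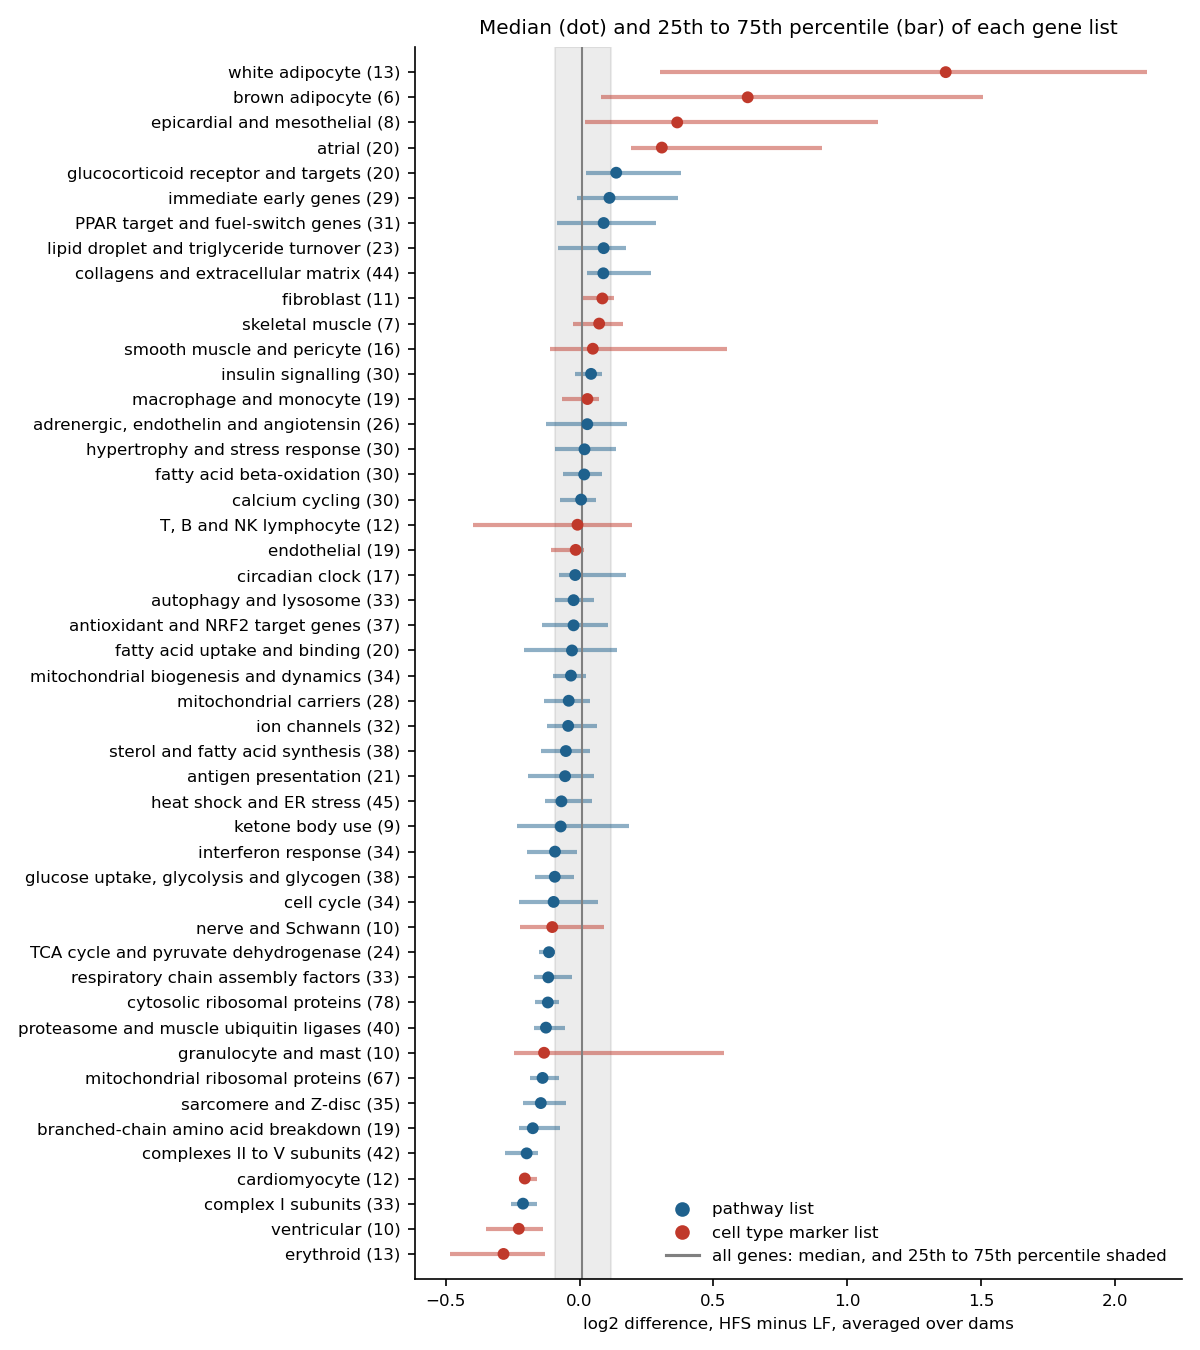
Median (dot) and 25th to 75th percentile (bar) of the log2 difference of HFS minus LF, averaged over dams (horizontal axis), for each of 48 gene lists with the number of tested members in brackets. Blue marks pathway lists and red marks cell type markers, and the grey line and band give the median (0.0083) and the 25th to 75th percentile of all 12983 genes; complex I is the lowest pathway list, at -0.21, and white adipocyte markers are the highest, at 1.37.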

How the data were processed

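Total RNA of 12 whole hearts was depleted of ribosomal RNA, made into NEBNext Ultra II Directional libraries and sequenced as pairs of 100 bp reads, per the labels' protocols. Ribosomal RNA still held a large and uneven share of recovered reads. Lean-LF 1 had 31258255 reads, of which 9172734 lay outside ribosomal RNA, and GDM-LF 3 had 25959595, of which 14109747 did. Reads were aligned with STAR 2.5.1b to Rnor_6.0, per the submitters' processing notes, which list HOMER 4.9, edgeR, FastQC and Trim Galore as well. The authors deposited 1 table of a normalised read signal, whose name says FPKM. No length enters these values. Each library's values are multiples of 1 constant (0.184 to 0.262), and 100% came out whole within 0.1 read, so whole reads were recovered. No source used here states how reads were counted, and between 67.8 and 73.6% of recovered numbers from 1 to 40 were even. Overlapping gene models share reads: 1005 of 12983 tested models (7.74%) overlap one with at least 25% of their value.

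Median-of-ratios factors (0.886 to 1.15) scaled the values, and of 17322 models those with a mean of at least 0.5 were tested with limma 3.58.1 in R 4.3.3 on log2(value + 0.1), which understates changes of low genes. The model had 4 group means, a variance trend and 8 residual degrees of freedom. P-values were two-sided, with a threshold of 0.05. Those of limma and edgeR were Benjamini-Hochberg adjusted over all tested genes. Adjusted p-values of DESeq2 came from its default settings, which can leave genes out of the adjustment. The script was tested on simulated data. On the recovered reads edgeR 4.0.16 called 0 genes and DESeq2 1.42.0 called 31. The members and the 48 gene lists (33 pathway, 15 cell type) were chosen with earlier results of these data known, so lists are described by counts and medians with no test. Named genes are the 24 with the smallest p, up to 4 members a list with the smallest p, a panel of 23 fat-responsive and cardiac genes, the 2 with the smallest interaction p, and genes called by DESeq2, the last chosen after their values were seen. Some genes that the rule names are not reported here. Errors are SE for log2 differences and SD for group values. Alternatives were other pseudocounts, filters, scalings, tests and models, and leaving out each library. RefSeq tables (GRCr8) gave promoters, and 15213 models matched by symbol.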

Additional observations from a re-analysis of the deposited data

Results flagged for a closer look

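Values were looked at again where, in the 6 libraries of a diet, the highest or lowest one lay far from the rest by Dixon's criterion, which sets the gap to the nearest library against the whole range. Of 188 sets of 6 libraries, 16 met it, and chance flags about 1 in 20. Lean-HFS 2 accounted for 9 of them. It was the lowest HFS heart in Myh6 (28979 scaled reads), Atp2a2 (26426), Angptl4 (9.78) and the level of branched-chain amino acid genes (-0.27), and the highest in Myh7 (31877), Acta1 (5794) and the levels of collagen and matrix (0.84), macrophage (0.81) and hypertrophy genes (0.46). GDM-LF 3 was the lowest LF heart in Cpt1b (1387) and in the levels of TCA cycle genes (-0.15) and mitochondrial carriers (-0.021), and the highest in Scd (253). The other libraries were the highest of their diet in 1 gene each: GDM-LF 1 in Gstm2 (384), Lean-HFS 3 in Ucp2 (1753) and GDM-HFS 1 in Nppa (10960). No explanation for these values was tested.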

How the results depend on the processing

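No gene was called by limma or edgeR under any scaling, pseudocount, filter or left-out library tried, apart from 1 lower gene, Slc25a29, with additive terms (adjusted p = 0.0467). DESeq2 called 15 higher and 16 lower. Depth limits low genes: 3 reads were worth 0.499 to 0.832 scaled reads, and no fold is read below that. Values without the scaling factor, as deposited, gave 981 higher and 102 lower genes at an unadjusted p under 0.05, and for the interaction 93 and 116. They moved the list medians to -0.018 for assembly factors, -0.076 for branched-chain amino acids, 0.058 for mitochondrial carriers, 0.0058 for glucose use, 0.14 for insulin signalling, -0.040 and -0.020 for mitochondrial and cytosolic ribosomal proteins, 0.066 for mitochondrial biogenesis, 0.076 for antioxidant and 0.076 for autophagy genes, 0.031 for heat shock, -0.027 for the proteasome, -0.13 for ventricular and 0.084 for endothelial markers. The all-gene median moved with them, from 0.0083 to 0.11. Quantile normalization gave -0.023 for the sarcomere list.

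When any 1 library was left out, the interaction count of genes with a more positive difference in GDM offspring ranged from 133 to 313 (main value 179) and the autophagy median from -0.058 to -0.0083. Over the same fits the log2 difference changed sign for Cpt1b (-0.029 to 0.076), Plin5 (-0.00020 to 0.15), Txnip (-0.11 to 0.17), Ppargc1a (-0.0071 to 0.14), Nppb (-0.13 to 0.27), Myh6 (-0.34 to 0.023) and Acta1 (-0.43 to 0.049). Txnip also changed sign with edgeR (-0.0075) and DESeq2 (-0.0045). The causes of these shifts were not tested. The 18 pairs of libraries with the same replicate number had correlations of deviations from -0.098 to 0.115. Pairs of Lean-LF with Lean-HFS were at 0.075, 0.063 and 0.115. Pairs of GDM-LF with GDM-HFS were at -0.077, 0.085 and -0.098. Whether the replicate numbers mark pairs cannot be told from these values. With the replicate block 0 genes were called, 983 had an unadjusted p under 0.05 and the adjusted p of Slc25a29 was 0.270, and 8 of 12 libraries correlated best with their own number.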
